A study of Mus musculus with 8 samples.

Results

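The MHC class II genes examined here are Cd74, H2-Aa, H2-Ab1, H2-Eb1 and Ciita. Their probe sets were taken by symbol alone, as every probe set (a group of short probes read as 1 value) with 1 of these 5 symbols. This gave 5 of 18194 genes and 12 of the 45101 probe sets on the array. The 5 genes themselves were chosen with earlier results of these data known, so their counts, ranks and medians are descriptions. Cd74 and H2-Eb1 had 1 probe set each, H2-Ab1 and Ciita had 3 each, and H2-Aa had 4. RNA came from the whole testes of males aged 28 postnatal days, each sample on 1 array, on a mixed background of the C57BL6/6J and 129 strains. Every mouse was Dmrt1 flox/flox, that is, homozygous for a floxed allele of Dmrt1, which encodes a DM-domain transcription factor. The Sf1-Cre group (n = 4) also carried Cre under the promoter of Nr5a1, known as Sf1, the Dhh-Cre group (n = 2) carried Cre under the Dhh promoter, and the control group (n = 2) had no Cre. The submitters describe both promoters as specific to Sertoli cells, which nurse the germ cells of the seminiferous tubule. The replicates are labelled biological, and the labels do not say whether a sample pooled testes of several mice.

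MHC class II molecules are pairs of an alpha and a beta chain that carry peptides from endocytosed proteins to the cell surface, where CD4+ T cells read them. In the endoplasmic reticulum the invariant chain Cd74 holds the new pair, blocks its groove and steers it to endosomes, where proteases remove Cd74 and H2-DM exchanges its last fragment for a peptide. Dendritic cells, B cells and macrophages make class II molecules, and in the testis they are known mainly from interstitial macrophages and dendritic cells. Their genes share a promoter block in which the X box binds the RFX complex and the Y box binds NF-Y, and the coactivator Ciita joins these factors without binding DNA itself.

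That promoter block could be shown for both member genes found in the RefSeq promoter table (GRCm38.p6), H2-Aa and H2-Eb1. It is printed to show which letters these genes share with each other and with H2-Oa and H2-Ob, the chains of the H2-O protein that restrains H2-DM. The sequences are given on the strand of the gene, and the capitals mark GCAAC, a core of the X box, and GATTGG, the core of the Y box. Both motifs were chosen after the sequences had been read.
H2-Aa, chr17:34287855-34287916, minus strand: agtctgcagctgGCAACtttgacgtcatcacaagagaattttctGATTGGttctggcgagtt
H2-Eb1, chr17:34305764-34305824, plus strand: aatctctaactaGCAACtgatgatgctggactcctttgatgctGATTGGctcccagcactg
H2-Oa, chr17:34092291-34092352, plus strand: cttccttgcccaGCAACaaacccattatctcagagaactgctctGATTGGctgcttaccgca
H2-Ob, chr17:34238806-34238864, plus strand: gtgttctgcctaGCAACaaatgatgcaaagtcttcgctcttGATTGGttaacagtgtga
In H2-Aa the GCAAC began 81 bases before the annotated start and the GATTGG 49 bases before it, with 27 bases between them. In H2-Eb1 they began 91 and 60 bases before the start, with 26 bases between. The gap was 27 bases in H2-Oa and 24 in H2-Ob. In windows of 250 bases before to 50 after a start, GCAAC occurred on either strand in 35.2% of 32851 promoters and GATTGG in 16.1%. The pair in this order, both motifs on the same strand and no more than 40 bases apart, occurred in 0.630% when either strand counted. On the strand of the gene alone it occurred in 0.323%. The promoter windows of H2-DMa, H2-DMb1 and H2-DMb2 did not hold the pair in exactly these letters on the strand of the gene. H2-Aa and H2-Eb1 held this pair and were high in Cre arrays, while H2-Oa and H2-Ob held it and lay almost wholly under the floor of measurement, as described further on.

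Levels are given as log2 of the deposited intensity, with a floor at 4 (an intensity of 16), under which a level was treated as not measured. A difference passed if its p-value from limma, a linear model fitted to all genes, was under 0.05 after Benjamini-Hochberg adjustment over all 13802 genes tested. The arrays had median intensities between 13.7 and 15.9, and 47.6 to 49.9% of their probe sets reached the floor. Dmrt1 itself was at log2 7.10, 7.89, 7.63 and 7.53 in the Sf1-Cre arrays, at 10.43 and 9.94 in the samples labelled Dhh-Cre and at 8.50 and 8.76 in controls. It was lower than in control in Sf1-Cre (log2 fold change -1.09 ± 0.25 SE, adjusted p = 0.00375) and higher in the samples labelled Dhh-Cre (1.55 ± 0.28, adjusted p = 0.0012). These last samples are labelled as Sertoli cell Dmrt1 knockouts, and the reason for their higher level was not tested. The labels do not say where the Dmrt1 probe set lies relative to the floxed part. Transcripts of spermatids, the haploid germ cells, differed most in bulk, since 10 of 10 spermatid genes fell in Sf1-Cre (median -6.25) and 9 of 10 fell in the samples labelled Dhh-Cre (median -6.94). The ratio of 3' to 5' signal of Actb, which rises as RNA or its copies shorten, was 9.45 to 13.5 in Sf1-Cre arrays, 9.51 and 13.6 in those labelled Dhh-Cre and 4.44 and 4.89 in controls. Sf1-Cre replicate 1 stood apart in genes of B cells and neutrophils and, with Sf1-Cre replicate 3 and Dhh-Cre replicate 1, in Spink8, a gene of the epididymis, the duct next to the testis. The summed intensity of 5 epididymal genes was 94.0 to 4406 in Sf1-Cre, 71.6 and 3248 in the samples labelled Dhh-Cre and 53.0 and 164 in controls. The member values without these arrays are given with the spread within groups.

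Cd74, H2-Aa and H2-Eb1 were between 10.9 and 34.7 times higher in both Cre groups than in controls, and H2-Ab1 was about 3 times higher, while Ciita was under the floor in every array. The class II chains and Cd74 passed in 4 of 4 tested genes in Sf1-Cre, against a background of 79.8% of all genes passing in either direction and 46.6% passing as higher. They also passed in 4 of 4 in the samples labelled Dhh-Cre, where the background was 79.6% in either direction and 49.1% higher. With so many genes passing, the size of a change says more than its call: the median log2 fold change of the 4 genes was 4.30 in Sf1-Cre against 0.34 over all genes tested, and 3.84 against 0.54 in the samples labelled Dhh-Cre. A scaling of each array on the median level of 15 housekeeping genes took 1.70 off every log2 change in Sf1-Cre and 1.69 off every one in the samples labelled Dhh-Cre, so that rises smaller than this, such as that of H2-Ab1 in those samples, turned sign. These steps were larger than the median of the 15 genes' own changes, which was 0.78 in Sf1-Cre (range -1.92 to 3.27) and 0.76 in the samples labelled Dhh-Cre (range -3.25 to 2.38). Whole testes were measured, so fewer or more cells of a type and less or more RNA per cell cannot be told apart in any of these values.

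Cd74 encodes the invariant chain. Its single probe set, 1425519_a_at, was at log2 11.40, 11.25, 11.55 and 11.29 in the Sf1-Cre arrays, at 11.05 and 11.05 in the samples labelled Dhh-Cre and at 6.51 and 5.99 in controls. All Cre arrays were high and both control arrays were low, with no overlap. As intensity, the Sf1-Cre arrays ranged from 2433 to 2993, the samples labelled Dhh-Cre read 2114 and 2118, and the controls read 91.2 and 63.6. Cd74 was thus 34.7 times higher in Sf1-Cre (log2 fold change 5.12 ± 0.18 SE, adjusted p = 4.84e-07) and 27.8 times higher in the samples labelled Dhh-Cre (4.80 ± 0.21 SE, adjusted p = 1.84e-06). It ranked 78th from the top among the 13802 genes in Sf1-Cre and 54th in the samples labelled Dhh-Cre.

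H2-Aa encodes the alpha chain of the I-A molecule. Its brightest probe set, 1435290_x_at, was at log2 9.32, 9.65, 9.59 and 9.59 in Sf1-Cre, at 9.21 and 9.14 in the samples labelled Dhh-Cre and at 4.94 and 4.96 in controls. Both control arrays lay within 1 log2 unit of the floor, and no Cre array came near them. The change was 4.59 ± 0.14 in Sf1-Cre (SE, adjusted p = 4.11e-07, 24.0-fold) and 4.23 ± 0.16 in the samples labelled Dhh-Cre (SE, adjusted p = 1.58e-06, 18.7-fold). The other probe sets of H2-Aa moved the same way where they could be measured. Probe set 1438858_x_at averaged 8.63 ± 0.02 in Sf1-Cre (SD, n = 4), 8.40 ± 0.02 in the samples labelled Dhh-Cre (n = 2) and 4.95 ± 0.37 in controls (n = 2), which made it 12.8 times higher in Sf1-Cre and 10.9 times in the samples labelled Dhh-Cre. Probe set 1452431_s_at was at 7.45, 8.02, 8.01 and 7.77 in Sf1-Cre, at 6.67 and 7.17 in the samples labelled Dhh-Cre and at 3.05 and 3.16 in controls. Since its control mean was under the floor, its folds are lower bounds against that floor, at least 14.1-fold higher in Sf1-Cre and at least 7.55-fold higher in the samples labelled Dhh-Cre. The last, 1443783_x_at, stayed under the floor in every array, at 2.70 to 2.82 in Sf1-Cre, 2.51 and 2.55 in the samples labelled Dhh-Cre and 1.25 and 1.98 in controls.

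H2-Ab1 encodes the beta chain that pairs with H2-Aa. Probe set 1450648_s_at was at log2 8.63, 8.85, 8.99 and 8.88 in Sf1-Cre, at 8.71 and 8.66 in the samples labelled Dhh-Cre and at 7.11 and 7.14 in controls. The groups with and without Cre did not overlap, but the gap was far narrower than for H2-Aa. The change was 1.71 ± 0.14 in Sf1-Cre (SE, adjusted p = 1.59e-05, 3.28-fold) and 1.56 ± 0.16 in the samples labelled Dhh-Cre (SE, adjusted p = 6.03e-05, 2.95-fold). It ranked 3045th from the top of 13802 genes in Sf1-Cre and 3847th in the samples labelled Dhh-Cre, and its value depended on the scaling, since that on housekeeping genes gave 0.02 in Sf1-Cre (adjusted p = 0.928) and -0.13 in the samples labelled Dhh-Cre (adjusted p = 0.548). The 2 other probe sets moved by similar amounts in the fit over probe sets. Probe set 1451721_a_at averaged 7.42 ± 0.33 in Sf1-Cre, 7.22 ± 0.21 in the samples labelled Dhh-Cre and 5.77 ± 0.26 in controls, or 3.15 times higher in Sf1-Cre and 2.74 times in the samples labelled Dhh-Cre. Probe set 1425477_x_at averaged 5.67 ± 0.16 in Sf1-Cre, 5.51 ± 0.04 in the samples labelled Dhh-Cre and 4.51 ± 0.07 in controls, or 2.23 times higher in Sf1-Cre and 2.01 times in the samples labelled Dhh-Cre.

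H2-Eb1 encodes the beta chain of the I-E molecule, which mice of the b haplotype, among them C57BL/6, cannot assemble for want of its alpha chain H2-Ea. Probe set 1417025_at was at log2 8.71, 8.92, 8.81 and 8.84 in Sf1-Cre, at 8.39 and 8.12 in the samples labelled Dhh-Cre and at 4.71 and 4.90 in controls. The Sf1-Cre arrays were all above those labelled Dhh-Cre, and these in turn lay far above the controls. The change was 4.01 ± 0.15 in Sf1-Cre (SE, adjusted p = 5.07e-07, 16.1-fold) and 3.45 ± 0.17 in the samples labelled Dhh-Cre (SE, adjusted p = 2.55e-06, 10.9-fold). All 3 probe sets of H2-Ea, looked up after the values were seen, were under the floor in every array, at log2 1.30 to 3.05.

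Ciita, the coactivator named above, was not measurable. Its probe sets 1421210_at, 1421211_a_at and 1447075_at lay between log2 2.10 and 2.89 over all 8 arrays, intensities of 4.28 to 7.40 against the floor of 16. The brightest, 1447075_at, was at 2.72, 2.64, 2.75 and 2.50 in Sf1-Cre, at 2.78 and 2.70 in the samples labelled Dhh-Cre and at 2.48 and 2.55 in controls. Levels this far under the floor give no fold, and they leave unsettled whether Ciita transcript was present.

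**Figure D1:**
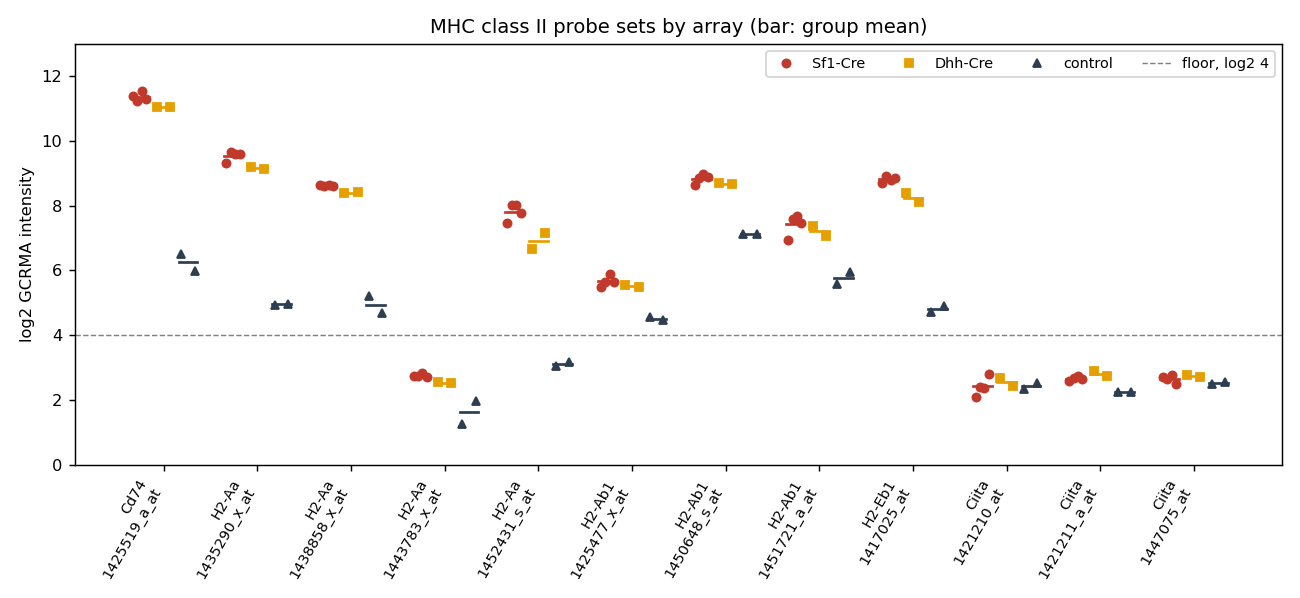
Log2 intensity of the 12 probe sets of Cd74, H2-Aa, H2-Ab1, H2-Eb1 and Ciita, 1 point per array, bars at the group means, the Sf1-Cre arrays on the left, those labelled Dhh-Cre in the middle and the controls on the right, and the floor drawn as a broken line. Cd74 sits at 11.05 or above in every Cre array and at 5.99 and 6.51 in the controls, whereas all 3 Ciita probe sets stay under the floor.

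Of the 12 probe sets, 8 could be tested and 4 were under the floor in every array. The 8 tested probe sets passed as higher in both Cre groups, those of H2-Ab1 with the limit of scaling given above. Of all 25791 probe sets tested, 77.5% passed in Sf1-Cre and 45.9% passed as higher, and in the samples labelled Dhh-Cre 77.9% passed and 49.1% passed as higher. One of them, 1452431_s_at, passed the floor only through its Cre arrays, so the count of 8 is a description of what could be measured.

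The chains of I-A changed by unequal amounts. The log2 difference between H2-Aa and H2-Ab1 within an array was 0.68, 0.80, 0.60 and 0.71 in Sf1-Cre, 0.50 and 0.48 in the samples labelled Dhh-Cre and -2.17 and -2.18 in controls. Because each value is taken within 1 array, this shift between groups does not depend on a constant log2 step added to an array. It can depend on scaling or background steps that act by level, and H2-Aa in controls lay close to the floor. The size of a shift between a pair of probe sets also reflects how each set responds. H2-Eb1 minus H2-Ab1 behaved alike, at -0.18 to 0.07 in Sf1-Cre, -0.32 and -0.54 in the samples labelled Dhh-Cre and -2.40 and -2.23 in controls. H2-Aa minus H2-Eb1 moved less, at 0.61 to 0.79 in Sf1-Cre, 0.82 and 1.03 in the samples labelled Dhh-Cre and 0.06 and 0.23 in controls. Cd74 minus H2-Aa overlapped most nearly, at 1.60 to 2.08 in Sf1-Cre, 1.84 and 1.90 in the samples labelled Dhh-Cre and 1.03 and 1.57 in controls.

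Within groups Cd74, H2-Aa, H2-Ab1 and H2-Eb1 varied little on the brightest probe set of each. Deviations of these sets from the group mean were at most 0.22 log2 units in any Sf1-Cre array. The largest were those of H2-Aa (-0.22) and H2-Ab1 (-0.20) in replicate 1 and of Cd74 (0.18) in replicate 3. Among these sets the widest spread between replicates was that of Cd74 in controls, 0.26 above and 0.26 below its mean. Some other probe sets spread more. In Sf1-Cre the SD was 0.33 for 1451721_a_at of H2-Ab1 and 0.27 for 1452431_s_at of H2-Aa. For 1438858_x_at of H2-Aa it was 0.02 in Sf1-Cre and 0.37 in controls. Without Sf1-Cre replicate 1 the changes in Sf1-Cre were 5.11 for Cd74, 4.66 for H2-Aa, 4.05 for H2-Eb1 and 1.78 for H2-Ab1. Without the 3 arrays high in Spink8 they were 5.02, 4.67, 4.07 and 1.74 for the same genes in Sf1-Cre and 4.80, 4.19, 3.31 and 1.54 in the samples labelled Dhh-Cre. All of these lie close to the values from all arrays.

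Between the Cre lines, 1 of the 4 genes passed, where 24.6% of all genes passed in either direction and 12.9% as higher in Sf1-Cre. That gene was H2-Eb1, which was 1.48 times higher in Sf1-Cre than in the samples labelled Dhh-Cre (log2 difference 0.56 ± 0.15 SE, adjusted p = 0.0272). The call failed when Sf1-Cre replicate 2 or 3 or either sample labelled Dhh-Cre was left out, with differences of 0.43 to 0.70 over all arrays left out in turn. H2-Aa differed by 0.36 ± 0.14 (SE, adjusted p = 0.104), Cd74 by 0.32 ± 0.18 (SE, adjusted p = 0.226) and H2-Ab1 by 0.15 ± 0.14 (SE, adjusted p = 0.473). Of the other H2-Aa probe sets, 1452431_s_at was 1.86 times higher in Sf1-Cre (0.90 ± 0.22 SE, adjusted p = 0.0243 over probe sets, of which 21.4% passed and 10.2% passed as higher) and 1438858_x_at differed by 0.23 ± 0.17 (SE, adjusted p = 0.368). The 4 Sf1-Cre arrays were above both samples labelled Dhh-Cre for Cd74, H2-Eb1 and the brightest H2-Aa probe set, and the lines overlapped for H2-Ab1. The share of all genes that part the lines in this way was not counted, so this is a description only. By their means the group levels ran Sf1-Cre, Dhh-Cre, control for each of these 4 genes, with the Cre lines separated by the test only for H2-Eb1. The order of the Cre lines turned round under macrophage centring, where Cd74 differed by -0.67, H2-Aa by -0.63, H2-Eb1 by -0.43 and H2-Ab1 by -0.84, and under pan-leukocyte centring, where they differed by -0.35, -0.31, -0.10 and -0.52.

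The other genes of the class II pathway were taken from a list of 24, of which 23 were on the array under a symbol of their own and 20 could be tested. In Sf1-Cre 15 of the 20 rose, 1 fell and 4 did not pass, with a median of 2.16. In the samples labelled Dhh-Cre 14 rose, 2 fell and 4 did not pass, with a median of 1.66. Lgmn, Marchf1, Cd83 and Cd86 had both controls under the floor and reached the test only through Cre arrays. The counts and medians therefore describe what could be measured. Under the housekeeping scaling 10 rose and 7 fell in Sf1-Cre, and 9 rose and 7 fell in the samples labelled Dhh-Cre. Over all genes, 46.6% rose and 33.2% fell in Sf1-Cre, and 49.1% rose and 30.5% fell in the samples labelled Dhh-Cre.

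The proteases and the thiol reductase that cut antigen and invariant chain mostly rose. Of 8 tested genes for loading and processing, 7 rose in Sf1-Cre (median 3.36) and 6 in the samples labelled Dhh-Cre (median 3.18). Ctss, cathepsin S, which makes the final cuts in the invariant chain, was at log2 11.59, 11.56, 11.69 and 11.74 in Sf1-Cre, at 10.95 and 11.07 in the samples labelled Dhh-Cre and at 7.89 and 7.71 in controls. It was high in every Cre array, 14.4 times higher than control in Sf1-Cre (adjusted p = 4.84e-07) and 9.25 times in the samples labelled Dhh-Cre (adjusted p = 2.51e-06). In Sf1-Cre, cathepsin H (Ctsh) was 25.5 times higher, Ctsb 16.7 times, Ctsd 12.1 times, and Ifi30, the reductase that opens disulfide bonds of antigens, 7.99 times. In the samples labelled Dhh-Cre, Ctsh was 14.6 times higher, Ctsb 11.2 times, Ctsd 8.83 times and Ifi30 6.47 times. The cathepsins are also general lysosomal proteases of many cell types. Lgmn, an asparaginyl endopeptidase, was at least 7.42-fold higher in Sf1-Cre and at least 11.5-fold higher in the samples labelled Dhh-Cre. Lgmn was the only one of the 20 to pass as lower in Sf1-Cre than in the samples labelled Dhh-Cre (-0.63 ± 0.13 SE, adjusted p = 0.013), and none passed so without Dhh-Cre replicate 1.

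The genes that edit the peptide had low levels or were under the floor. H2-DMa, the alpha chain of H2-DM, was at log2 5.70, 5.78, 6.04 and 6.37 in Sf1-Cre, at 5.77 and 5.51 in the samples labelled Dhh-Cre and at 5.12 and 5.31 in controls. It rose by 0.76 ± 0.21 in Sf1-Cre (SE, adjusted p = 0.0112), less than the step of the housekeeping scaling, and did not pass in the samples labelled Dhh-Cre (0.43 ± 0.25, adjusted p = 0.143). H2-DMb2, a beta chain of H2-DM, averaged log2 4.63 ± 0.69 in Sf1-Cre (SD, n = 4), 3.96 ± 0.68 in the samples labelled Dhh-Cre (n = 2) and 3.94 ± 0.57 in controls (n = 2), and did not pass in either line (adjusted p = 0.215 in Sf1-Cre and 0.973 in the samples labelled Dhh-Cre). Since the control mean was under the floor, these levels do not settle whether it changed. H2-Oa was under the floor in every array, at 2.88 to 3.27 in Sf1-Cre, 2.89 and 2.96 in the samples labelled Dhh-Cre and 2.50 and 2.80 in controls. H2-Ob reached the floor in 1 array alone, Sf1-Cre replicate 1, with 4.59, 2.57, 3.30 and 2.94 in Sf1-Cre, 2.38 and 2.49 in the samples labelled Dhh-Cre and 1.16 and 1.96 in controls. No probe set carried the symbol H2-DMb1 alone, and 3 probe sets that list several class II symbols were left unnamed.

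The factors that bind the printed promoter block changed less than the chains. The 3 subunits of NF-Y, the Y box factor, were 2.08 to 2.52 times higher in the Cre lines, a rise smaller than the step of the housekeeping scaling but larger than the median change of those genes, and all passed. On the log2 scale the changes in Sf1-Cre were 1.33 ± 0.14 for Nfyc (SE, adjusted p = 5.34e-05), 1.20 ± 0.18 for Nfyb and 1.06 ± 0.28 for Nfya. In the samples labelled Dhh-Cre they were 1.23 ± 0.16 for Nfyc (SE, adjusted p = 0.000183), 1.33 ± 0.21 for Nfyb and 1.33 ± 0.32 for Nfya. The subunits of RFX, the X box complex, did not rise. Rfxap fell by 1.33 in Sf1-Cre (adjusted p = 0.000172) and fell by 0.82 in the samples labelled Dhh-Cre (adjusted p = 0.00492). Rfxank fell by 1.29 in the samples labelled Dhh-Cre (adjusted p = 0.000391) and differed by -0.36 ± 0.17 in Sf1-Cre (adjusted p = 0.073). Rfx5 differed by -0.02 ± 0.16 in Sf1-Cre (adjusted p = 0.924) and by -0.32 ± 0.18 in the samples labelled Dhh-Cre (adjusted p = 0.145). Creb1, whose product binds between the X and Y boxes, was 2.24 times higher in Sf1-Cre and 1.79 times in the samples labelled Dhh-Cre on its brightest probe set, but 3 of its 4 other probe sets above the floor had the opposite sign.

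Genes for turnover and costimulation were mostly higher, 4 of 5 tested in both lines. Marchf1, a ubiquitin ligase that removes class II molecules and Cd86 from the surface, was at log2 6.23, 5.49, 5.42 and 5.44 in Sf1-Cre, at 4.45 and 4.32 in the samples labelled Dhh-Cre and at 2.40 and 2.39 in controls. It was at least 3.13-fold higher than control in Sf1-Cre and at least 1.30-fold in the samples labelled Dhh-Cre, and it was 2.40 times higher in Sf1-Cre than in the samples labelled Dhh-Cre (adjusted p = 0.00961). Cd83, which protects class II molecules from that ligase, was at least 6.02-fold higher in Sf1-Cre and at least 4.10-fold in the samples labelled Dhh-Cre. The costimulatory ligand Cd86 was at least 5.03-fold higher in Sf1-Cre and at least 2.89-fold in the samples labelled Dhh-Cre. Icosl, another such ligand, was 8.36 times higher in Sf1-Cre and 5.97 times in the samples labelled Dhh-Cre. Cd40 differed by -0.17 ± 0.34 in Sf1-Cre (adjusted p = 0.657) and by -0.71 ± 0.40 in the samples labelled Dhh-Cre (adjusted p = 0.133), and Cd80 was under the floor in every array. Between the lines 6 of the 20 pathway genes were higher in Sf1-Cre, namely Ctss, Ctsh, Rfxank, Marchf1, Cd86 and Icosl, a count that became 1 without Dhh-Cre replicate 1 and 2 without Dhh-Cre replicate 2.

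**Figure D2:**
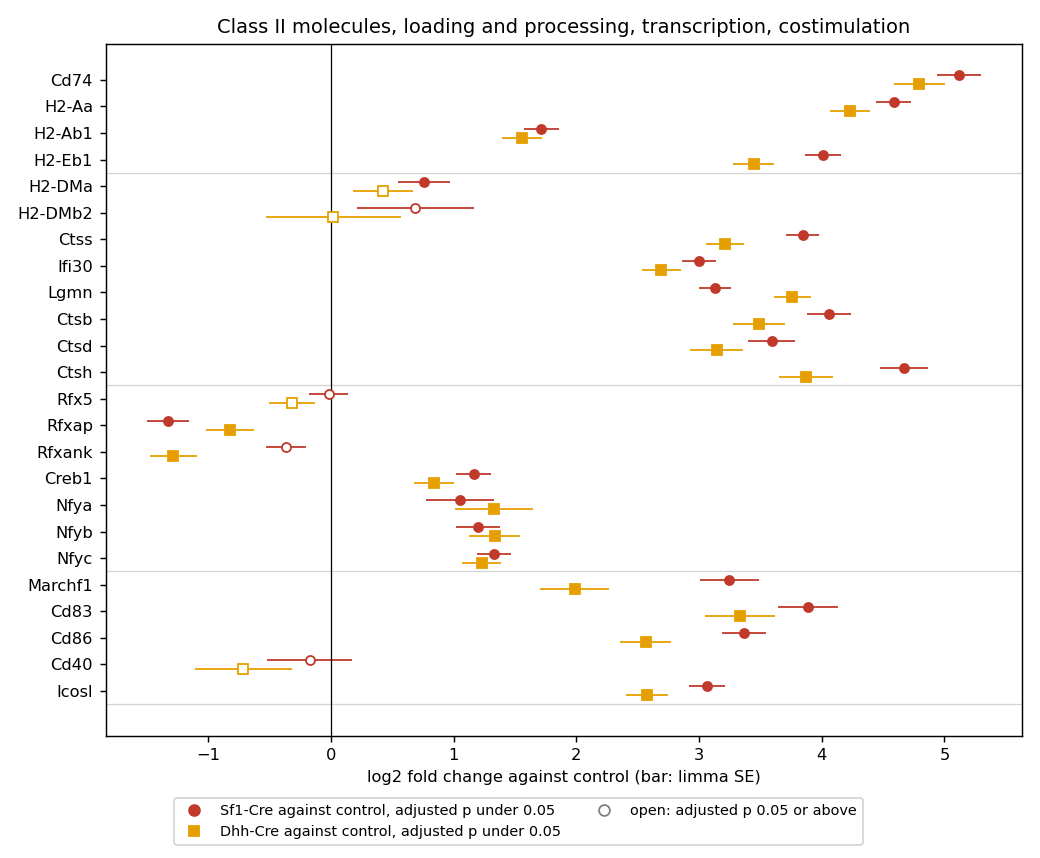
Log2 fold change against control, with limma's standard error as the bar, for the 4 tested class II genes and the 20 tested genes of the pathway, grouped by role, with Sf1-Cre above the samples labelled Dhh-Cre in each row and open symbols where a change did not pass. Cd74 has the largest change (5.12 in Sf1-Cre, 4.80 in the samples labelled Dhh-Cre), H2-Ab1 stands apart from the other chains (1.71 in Sf1-Cre, 1.56 in the samples labelled Dhh-Cre, with 0.02 and -0.13 in the same groups when scaled on housekeeping genes), and Rfxap lies left of 0 in both lines. For Lgmn, H2-DMb2, Marchf1, Cd83 and Cd86 the control mean is under the floor, so the plotted change is a fitted value and no bound.

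On chromosome 17, H2-Ab1, H2-Aa and H2-Eb1 are neighbours in the order of protein-coding genes of GRCm38.p6, flanked by H2-Ob on one side and H2-Eb2 on the other. The stretch from H2-Oa to H2-Eb2, chosen after the values were seen, holds 14 protein-coding genes, of which 10 could be tested. In Sf1-Cre 8 rose and 1 fell (median 2.55), and in the samples labelled Dhh-Cre 7 rose and the other 3 did not pass (median 2.19). Over all genes, 46.6% rose and 33.2% fell in Sf1-Cre, and 49.1% rose and 30.5% fell in the samples labelled Dhh-Cre. The genes tested include H2-Ab1, H2-Aa and H2-Eb1 themselves. Psmb9, Tap1, Psmb8 and Tap2 had both controls under the floor and reached the test only through Cre arrays. In this row H2-Aa and H2-Eb1 changed by 3.45 to 4.59 log2 units while H2-Ob before them and H2-Eb2 after them stayed under the floor in nearly all arrays. The 4 genes of class I peptide supply inside the stretch also rose. Tap1, a subunit of the peptide transporter, was at least 7.12-fold higher in Sf1-Cre and at least 6.20-fold in the samples labelled Dhh-Cre. The immunoproteasome subunit Psmb9 was at least 7.52-fold higher in Sf1-Cre and at least 5.07-fold in the samples labelled Dhh-Cre. Its partner Psmb8 was at least 5.24-fold higher in Sf1-Cre and at least 3.68-fold in the samples labelled Dhh-Cre. Tap2, the transporter's other subunit, was at least 1.46-fold higher in Sf1-Cre and at least 1.23-fold in the samples labelled Dhh-Cre. Brd2, a bromodomain gene, fell by 1.57 in Sf1-Cre (adjusted p = 0.00252) and differed by -0.61 ± 0.38 in the samples labelled Dhh-Cre (adjusted p = 0.169). Ciita is on chromosome 16 and Cd74 on chromosome 18.

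**Figure D3:**
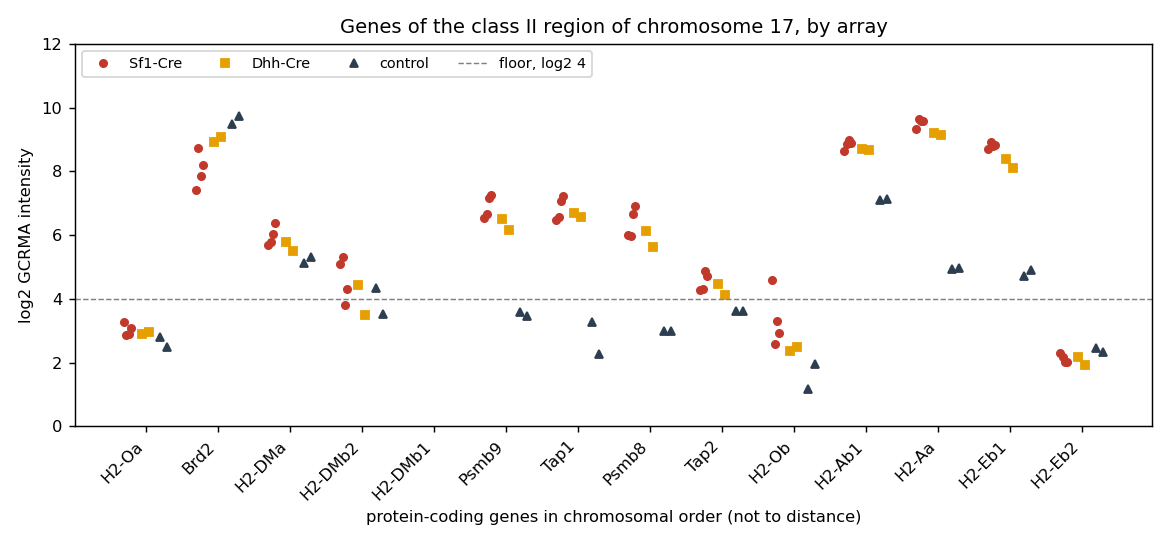
Log2 intensity of the protein-coding genes from H2-Oa to H2-Eb2 in their order along chromosome 17 (not to distance), 1 point per array, with the Sf1-Cre arrays left of those labelled Dhh-Cre and these left of the controls, and the floor as a broken line. H2-Aa and H2-Eb1 lie at 8.12 or above in every Cre array and at 4.96 or below in controls, between H2-Ob and H2-Eb2, which are mostly under the floor, and Brd2 is highest in controls.

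Class I presentation and the response to interferon gamma, the cytokine that induces Ciita in many cells, moved beside the class II genes. Of 12 class I genes tested, 10 rose and 1 fell in Sf1-Cre (median 1.69) and 9 rose and 1 fell in the samples labelled Dhh-Cre (median 1.72), medians close to the step of the housekeeping scaling. H2-M3, Tap1 and Tap2 had both controls under the floor and reached the test only through Cre arrays. These counts and medians therefore describe what could be measured. The shares over all genes, for this list and the lists that follow, are those given above, 46.6% higher and 33.2% lower in Sf1-Cre and 49.1% higher and 30.5% lower in the samples labelled Dhh-Cre. B2m, the light chain of class I molecules, was 6.19 times higher in Sf1-Cre and 4.87 times in the samples labelled Dhh-Cre. It is also on the housekeeping list, so that scaling and the class I list are not independent. The heavy chain genes H2-D1 and H2-K1 were 13.8 and 5.20 times higher in Sf1-Cre and 10.9 and 5.01 times in the samples labelled Dhh-Cre. Of the 4 other H2-D1 probe sets above the floor, 1 had the opposite sign in Sf1-Cre. Erap1, a peptidase that trims class I peptides, was 8.57 times higher in Sf1-Cre and 6.58 times in the samples labelled Dhh-Cre. The gene that fell was Nlrc5, the coactivator of class I genes and the class I counterpart of Ciita. It was at log2 8.28, 8.11, 7.99 and 7.62 in Sf1-Cre, at 7.54 and 6.65 in the samples labelled Dhh-Cre and at 10.86 and 10.87 in controls. All Cre arrays were low and both controls high, the reverse of B2m and H2-K1 (-2.86 ± 0.27 in Sf1-Cre, adjusted p = 3.39e-05, and -3.77 ± 0.31 in the samples labelled Dhh-Cre, adjusted p = 2.03e-05). Of 15 interferon gamma genes tested, 14 rose and 1 fell in Sf1-Cre (median 3.64), and 12 rose and 1 fell in the samples labelled Dhh-Cre (median 3.53). Several of them, Irf1 among these, had both controls under the floor and reached the test only through Cre arrays. Jak1, a kinase of the receptor, was 12.4 times higher in Sf1-Cre and 11.8 times in the samples labelled Dhh-Cre. The guanylate-binding protein gene Gbp7 was 18.1 times higher in Sf1-Cre and 14.2 times in the samples labelled Dhh-Cre, and the transcription factor gene Irf1 at least 6.97-fold in Sf1-Cre and at least 4.24-fold in the samples labelled Dhh-Cre. The receptor subunit Ifngr2 fell by 2.33 in Sf1-Cre and fell by 1.27 in the samples labelled Dhh-Cre (adjusted p = 0.000118 in Sf1-Cre and 0.00669 in the other line). The cytokine gene Ifng was under the floor in every array, at 2.05 to 2.33 in Sf1-Cre, 2.01 and 2.06 in the samples labelled Dhh-Cre and 2.04 and 2.20 in controls.

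Markers of leukocytes moved with the class II genes. The summed intensity of the 10 pan-leukocyte genes was 9729 to 13671 in Sf1-Cre, 8221 and 10169 in the samples labelled Dhh-Cre and 989 and 1184 in controls. In that list 9 of 10 rose in Sf1-Cre and 7 of 10 in the samples labelled Dhh-Cre. Ptprc, the common leukocyte antigen, was at log2 8.49, 7.88, 8.59 and 8.42 in Sf1-Cre, at 7.49 and 7.29 in the samples labelled Dhh-Cre and at 3.53 and 3.47 in controls, so that both controls were under the floor. It was at least 20.4-fold higher in Sf1-Cre and at least 10.5-fold in the samples labelled Dhh-Cre. Coro1a, an actin-binding protein of leukocytes, was 19.2 times higher in Sf1-Cre and 14.9 times in the samples labelled Dhh-Cre. Vav1, a guanine nucleotide exchange factor of blood cells, fell by 1.01 in Sf1-Cre and fell by 2.58 in the samples labelled Dhh-Cre. Cd52, a surface glycoprotein of leukocytes, was at log2 11.66 in replicate 1, 9.45 in replicate 3 and 8.07 or less in the other 2 arrays of Sf1-Cre, at 11.12 and 6.85 in the samples labelled Dhh-Cre and at 6.32 and 5.10 in controls, and its highest arrays were the 3 high in Spink8.

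Macrophage genes rose in 18 of 19 tested, in both lines (median 3.89 in Sf1-Cre, 3.22 in the samples labelled Dhh-Cre). The summed intensity of the 20 on the array was 33859.5 to 40231 in Sf1-Cre, 27580.5 and 28239.5 in the samples labelled Dhh-Cre and 12139 and 16365 in controls. Csf1r, the receptor for the macrophage growth factor, was 14.9 times higher in Sf1-Cre, Adgre1, the F4/80 antigen, 11.0 times, the adaptor Tyrobp 23.9 times, lysozyme (Lyz2) 19.4 times and the complement gene C1qc 29.1 times. In the samples labelled Dhh-Cre, Csf1r was 9.32 times higher, Adgre1 7.85 times, Tyrobp 16.3 times, Lyz2 9.57 times and C1qc 19.9 times. Aif1, an actin-binding protein of macrophages, fell by 3.02 in Sf1-Cre and fell by 4.29 in the samples labelled Dhh-Cre, and Itgam was under the floor. Centring each array on the median level of this list took 4.47 off every change in Sf1-Cre and 3.47 in the samples labelled Dhh-Cre, more than the medians of the genes' own changes. Cd74 was then still higher than in control (0.65 in Sf1-Cre, adjusted p = 0.0273, and 1.32 in the samples labelled Dhh-Cre, adjusted p = 0.00127). In Sf1-Cre, H2-Aa then differed from control by 0.12 (adjusted p = 0.602), H2-Eb1 by -0.45 (adjusted p = 0.0598) and H2-Ab1 by -2.75 (adjusted p = 4.7e-07). In the samples labelled Dhh-Cre, H2-Aa differed by 0.75 (adjusted p = 0.0165), H2-Eb1 by -0.03 (adjusted p = 0.919) and H2-Ab1 by -1.91 (adjusted p = 4.72e-05). The part that macrophage number has in the class II values was not tested.

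Of the cells other than macrophages that carry class II molecules, dendritic genes were partly measured and B cell genes mainly in 1 array. Of 11 dendritic genes on the array 7 were under the floor, among them the defining Itgax, at 3.02 to 3.62 in Sf1-Cre, 2.17 and 2.28 in the samples labelled Dhh-Cre and 3.17 and 3.38 in controls, and Flt3. All 4 that could be tested rose in Sf1-Cre and 3 rose in the samples labelled Dhh-Cre, and the summed intensity of the 11 was 729 to 1169 in Sf1-Cre, 588 and 609 in the samples labelled Dhh-Cre and 135 and 138 in controls. Zbtb46, a transcription factor gene of conventional dendritic cells and of endothelium, was 6.16 times higher in Sf1-Cre and 5.87 times in the samples labelled Dhh-Cre. Clec10a, a lectin of dendritic cells and macrophages, was at log2 8.39, 8.03, 8.28 and 8.84 in Sf1-Cre, at 5.84 and 5.99 in the samples labelled Dhh-Cre and at 3.70 and 4.15 in controls. It set the lines apart more than any class II gene did, at 5.55 times higher in Sf1-Cre than in the samples labelled Dhh-Cre (2.47 ± 0.24 SE, adjusted p = 0.000652).

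The B cell genes Cd79a and Ms4a1, with log2 levels of 5.57 and 7.25 in Sf1-Cre replicate 1, were under the floor in all 7 other arrays. The summed intensity of the 9 B cell genes was 75.7 to 626 in Sf1-Cre, 58.2 and 66.4 in the samples labelled Dhh-Cre and 67.3 and 69.5 in controls, and it was that replicate that gave 626. Without it Cd74 and the 3 chains were as high as with it, by the values given above. The 11 T and NK cell genes summed to 93.0 to 106 in Sf1-Cre, 83.6 and 99.5 in the samples labelled Dhh-Cre and 487 and 569 in controls. Of these genes 8 were too low to test, and of the 3 tested 2 fell in each line. Sums over so few measurable genes do not measure the number of T and NK cells. Their defining gene Cd3e differed by -0.15 ± 0.28 in Sf1-Cre (adjusted p = 0.639) and by 0.06 ± 0.33 in the samples labelled Dhh-Cre (adjusted p = 0.87). Cd3d fell by 4.39 in Sf1-Cre and fell by 5.63 in the samples labelled Dhh-Cre. Neutrophil genes summed to 64.2 to 7198 in Sf1-Cre, 53.0 and 181 in the samples labelled Dhh-Cre and 77.5 and 87.1 in controls, with the highest value again from Sf1-Cre replicate 1.

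**Figure D4:**
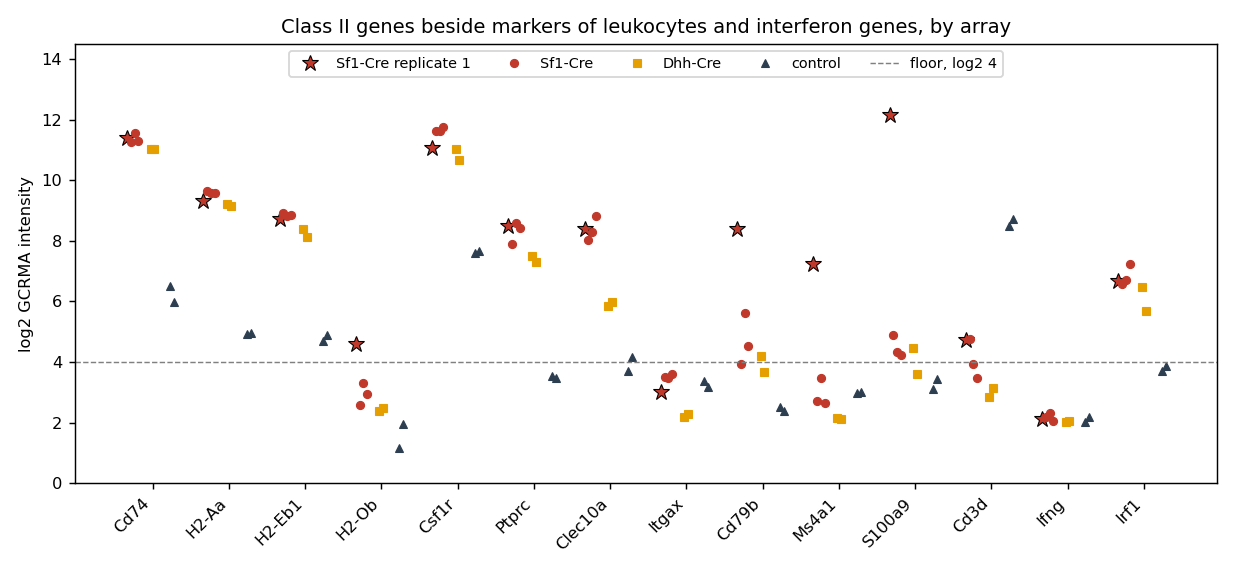
Log2 intensity of Cd74, H2-Aa, H2-Eb1 and H2-Ob beside markers of leukocytes and the genes Ifng and Irf1, 1 point per array, with the Sf1-Cre arrays left of those labelled Dhh-Cre and these left of the controls, and Sf1-Cre replicate 1 drawn as a star. The star stands far above the other arrays for Cd79b (8.40), Ms4a1 (7.25) and S100a9 (12.17) and lies among the other Sf1-Cre arrays for Cd74 (11.40).

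By Pearson's r over the 8 arrays with the mean log2 level of Cd74, H2-Aa, H2-Ab1 and H2-Eb1, the genes of most similar pattern among 13798 compared were Hoxd9 (r = 0.9995), Gpx7 (0.9992), Lgalsl (0.9991), Tmem176b (0.9989), Creb3l2 (0.9988), Tmc4 (0.9988), Fam120aos (0.9988), Acsbg1 (0.9988), Tpd52 (0.9987) and Brcc3 (0.9987). These arrays fall into 3 groups that the points share, and 532 genes had r of 0.99 or more, so this is a description without a p-value. Hoxd9, a homeobox transcription factor gene, was at log2 12.25, 12.33, 12.44 and 12.30 in Sf1-Cre, at 11.93 and 11.85 in the samples labelled Dhh-Cre and at 8.60 and 8.48 in controls. Its group means stood in the same order as those of the class II chains, of which H2-Ab1 had overlapping Cre lines. Among the markers named above, r was 0.998 for Tyrobp, 0.996 for Ctss, 0.991 for Csf1r, 0.9896 for Adgre1, 0.989 for Ptprc and 0.877 for Clec10a.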

How the data were processed

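Per the labels' protocols, RNA was isolated with TRIzol and labelled with biotin by in vitro transcription, and each sample has 1 array. The deposited intensity values, on a linear scale, were made with GCRMA per the submitters' processing notes, while its version, its settings and the genome build were not given in the sources used here. In its usual form GCRMA subtracts a background modelled on probe sequence and equalises the distribution of arrays by quantiles, which assumes that most genes do not change. The log2 of these deposited values was taken here.

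Of the probe sets, 34958 carry 1 symbol, 932 several and 9211 none in the platform annotation, and 34754 matched GRCm38.p6 by Entrez identifier. Each gene was represented by the probe set with the highest mean, and 13802 of 18194 genes had at least 2 arrays at log2 4 or above and were tested. Limma 3.58.1 (R 4.3.3, with data.table, version 1.17.8) fitted 3 group means to all 8 arrays with empirical Bayes moderation (5 residual and 2.73 prior degrees of freedom), and the same model was fitted to 25791 probe sets. P-values are 2-sided, adjusted by Benjamini and Hochberg over everything tested, with 0.05 as threshold. SE is limma's standard error, and SD is the standard deviation. Folds against a group under the floor are lower bounds against it. The number of arrays limits the precision. Summaries and plots used Python 3.11.15 (pandas 2.3.3, matplotlib 3.10.9).

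The members and lists were chosen with earlier results of these data known. Named were all member probe sets, every tested pathway gene, up to 4 genes with the lowest p in each other list plus its defining markers, and the 10 genes of highest r. Of some lists fewer than 4 were named, and 1 pan-leukocyte gene that the rule takes is not reported here. Genes of the chromosome 17 stretch, H2-M3, Nlrc5, Ifngr2, Irf1, Aif1, Vav1, Cd52, Ms4a1, S100a9, Spink8, Itgam, H2-Ea and Dmrt1 were named outside this rule, all but Dmrt1 after their values were seen. The alternatives were other scalings, filters, moderation, thresholds, probe set means, a replicate block and leaving out arrays.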

Additional observations from a re-analysis of the deposited data

Results flagged for a closer look

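In the Sf1-Cre group of 4 arrays, 1 array stood apart from the others in 6 of 77 gene and group combinations screened by Dixon's ratio, the gap to the nearest array over the whole range, and chance alone gives about 1 in 20. Replicate 1 was the high array for Cd79a (ratio 0.848), S100a9 (0.915), Marchf1 (0.925) and Rfxank (0.844), and replicate 4 was the high array for Ctsh (0.917) and H2-D1 (0.972). S100a9, a neutrophil gene, was at log2 12.17 in Sf1-Cre replicate 1 and at 4.22 to 4.90 in the other Sf1-Cre arrays. None of Cd74, H2-Aa, H2-Ab1 and H2-Eb1 had such an array.

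The changes from control differed between the Cre lines, by limma's test of Sf1-Cre minus the samples labelled Dhh-Cre, for the following named genes. Among class II chains this was H2-Eb1 (0.56 on the log2 scale), and among further probe sets 1452431_s_at of H2-Aa (0.90). In the class II pathway it was Marchf1 (1.26), Rfxank (0.92), Cd86 (0.80), Ctsh (0.80), Ctss (0.63), Icosl (0.49) and Lgmn (-0.63). Among markers and neighbouring pathways it was Clec10a (2.47), Vav1 (1.57), Aif1 (1.27), Cd3d (1.24), Lyz2 (1.02), Ptprc (0.96), Nlrc5 (0.91), Tyrobp (0.55), Hoxd9 (0.44) and Ifngr2 (-1.06). Dmrt1 itself differed by -2.64.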

How the results depend on the processing

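Cd74 kept its direction and its call against control in both lines under all 22 alternatives. H2-Aa did so in the samples labelled Dhh-Cre, and in Sf1-Cre in all but the macrophage centring, where it was 0.12. H2-Eb1 and H2-Ab1 depended on what the arrays were centred on. With the macrophage list, H2-Eb1 was -0.45 in Sf1-Cre and -0.0269 in the samples labelled Dhh-Cre, and H2-Ab1 was -2.75 in Sf1-Cre and -1.91 in the samples labelled Dhh-Cre. With the pan-leukocyte list, H2-Eb1 (0.36) and H2-Ab1 (-1.94) in Sf1-Cre and H2-Eb1 (0.47) and H2-Ab1 (-1.42) in the samples labelled Dhh-Cre changed, H2-Eb1 not passing in either. With the housekeeping list, H2-Ab1 was 0.0174 in Sf1-Cre and -0.13 in the samples labelled Dhh-Cre, while Cd74 (3.42 in Sf1-Cre, 3.10 in the samples labelled Dhh-Cre), H2-Aa (2.89, 2.53) and H2-Eb1 (2.32, 1.75) passed in both. That centring turned the share of passing genes that were higher to 17.8% from 58.4% in Sf1-Cre and to 19.1% from 61.7% in the samples labelled Dhh-Cre, and put the median of all genes at -1.36 in Sf1-Cre and -1.16 in the other line. All 4 other Actb probe sets above the floor had the opposite sign to the one in that list.

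Between the lines, macrophage centring gave -0.67 for Cd74, -0.63 for H2-Aa, -0.84 for H2-Ab1 and -0.43 for H2-Eb1, and pan-leukocyte centring -0.35, -0.31, -0.52 and -0.10. H2-Aa passed as a mean of its probe sets (0.43). H2-Eb1 missed the threshold when centred on housekeeping genes (0.56), at 0.01 (0.56), and without the arrays high in Spink8 (0.76), an alternative chosen after seeing the data, and ranged over 0.43 to 0.70 with arrays left out in turn.

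The count of pathway genes higher and lower than control in Sf1-Cre (15 and 1) was 0 and 18 with macrophage and 1 and 10 with pan-leukocyte centring, and 7 were lower with housekeeping centring. It was 2 lower with quantile normalization and array weights, and 1 to 2 with arrays left out. In the samples labelled Dhh-Cre (14 and 2) it was 0 and 14, 0 and 10, and 9 and 7 under those centrings, and 1 was lower with probe set means. Between the lines (6 and 1) it was 0 and 8 with macrophage and 0 and 2 with pan-leukocyte centring, 2 and 0 at 0.01, 0 and 0 without the arrays high in Spink8, and 2 lower with quantile normalization and array weights. With arrays left out it was 1 to 7 higher and 0 to 1 lower. The cause of these changes was not tested.

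Replicate numbers occur in all groups, and 1 of 6 same-numbered pairs deviated together with r over 0.1 (range -0.19 to 0.38). Control and the samples labelled Dhh-Cre hold so few arrays that deviations from the group mean mirror each other. The 6 values are therefore not independent, and they cannot decide whether the numbers pair the samples. With the number as a replicate block, H2-Eb1 between the lines was 0.56 (adjusted p = 0.125) and 4 pathway genes were higher and 0 lower, and no call of a member against control changed.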

Other observations

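Endothelial genes, which mark blood vessel lining, rose in 7 of 7 tested in Sf1-Cre (median 2.62) and in the samples labelled Dhh-Cre (median 2.13). Leydig genes, for steroid synthesis in the interstitium, rose in 4 of 5 tested in Sf1-Cre and in 3 of 5 in the samples labelled Dhh-Cre. Over all genes tested 46.6% rose in Sf1-Cre and 49.1% in the samples labelled Dhh-Cre, and monocyte genes rose in 2 of 5 tested in each line, with a median of 0.99 in Sf1-Cre and 1.01 in the samples labelled Dhh-Cre.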
